A study of Mus musculus with 8 samples.

Results

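Genes of B lymphocyte development were compared between long bones of mice with the Hyp mutation and of wild-type (WT) mice. The members were 35 genes named for their part in the B cell lineage, from lymphoid progenitors to mature B cells, and 34 of them had at least 1 microarray probe set annotated to that gene symbol alone. These 34 genes, measured by 65 of 45037 probe sets, were set among all 18193 genes of the arrays, and the expression of Cd38, an ectoenzyme of lymphocyte surfaces, was not analysed here. Male mice were taken at an age of 12 days, total RNA was extracted from tibia and femur with 2 bone samples of like genotype in each extract, and 4 extracts per genotype went onto 1 array each. The Hyp mice (4 arrays), on a C57BL/6 background, lack a 3′ part of the Phex gene and are used as a model of X-linked hypophosphatemia, in which phosphate is lost through the kidney and bone mineralizes poorly. The WT mice (4 arrays) are labelled as wild type with no further strain name. The series title names what controls Fgf23 and the mineralization of Hyp bone as its subject. The labels do not say that the arrays of a genotype come from separate litters or from how many animals, so the p-values below reflect only how much these RNA extracts vary.

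B cells are made in the marrow that fills long bones. A lymphoid progenitor that commits to the lineage first switches on transcription factors such as Ebf1 and Pax5, cuts and joins its immunoglobulin heavy chain genes with the Rag1 and Rag2 recombinase, and shows the new heavy chain on its surface with the surrogate light chain made of Vpreb1 and Igll1. Dntt adds untemplated nucleotides at the joints, and the survival of these early cells in mice depends on interleukin 7 and its receptor chain Il7r. Cells that pass this step replace the surrogate chain with a true light chain and later show genes of mature B cells such as Ms4a1 (CD20), Cd22, Cr2 and Bank1.

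Each deposited value is a log2 intensity centred on the median of its probe set over the 8 arrays, so a value of 0 is the middle of the arrays and not an absence of RNA. Differences between arrays can be read, but levels and detection cannot, and for the same reason the labelled tissue could not be checked by the level of any marker. A gene's value is the mean over its probe sets. Differences are Hyp minus WT on the log2 scale, with the SE of limma's fit over all genes, and a gene was said to have risen or fallen when its Benjamini-Hochberg adjusted p over the 18193 genes was under 0.05. In whole bone RNA, fewer cells of a type and less RNA per cell cannot be told apart. The deleted gene Phex lay at -6.67 ± 0.15 (SE, n = 4 each; limma adjusted p = 3.75e-09) and Fgf23, the phosphate-lowering hormone of bone, at 5.61 ± 0.18 (limma adjusted p = 1.22e-07), with no overlap between the genotypes for either gene. Hyp replicate 2 and WT replicate 3 stood apart in skeletal muscle genes, with list means of -1.08 and 1.68 beside a range of -0.43 to 0.26 in the other arrays.

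Of the 34 genes measured, 3 fell in Hyp bone, 1 rose and 30 did not pass the threshold. Dntt, Rag1 and Vpreb1, all genes of the early stages, fell to between 67.6% and 75.2% of the WT level, and Bank1, an adaptor of later B cells, rose to 127% of it. The 3 lower genes were 8.82% of the members, against 6.32% of all genes lower in Hyp. The 1 higher gene was 2.94% of the members, against 6.54% of all genes higher in Hyp. Without both Hyp replicate 2 and WT replicate 3, 6 members fell and none rose, beside 5.2% of all genes lower and 6.02% higher. Hyp replicate 2 was the highest Hyp array in 21 members and WT replicate 3 the lowest WT array in 19. Leaving them out lowers the difference of such members by construction. Without Hyp replicate 1 or WT replicate 1 only Dntt fell, beside 4.69% and 4.42% of all genes lower. The difference was negative for 23 members and positive for 11, and its median was -0.06, beside 0.02 over all genes. Every Hyp array lay below every WT array for 3 members, beside 8.89% of all genes, and above every WT array for 2, Bank1 and Ikzf1, beside 10.3% of all genes. By probe set, 3 of 65 were lower (3.91% of all probe sets were) and 2 were higher (3.22% of all were).

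**Figure D1:**
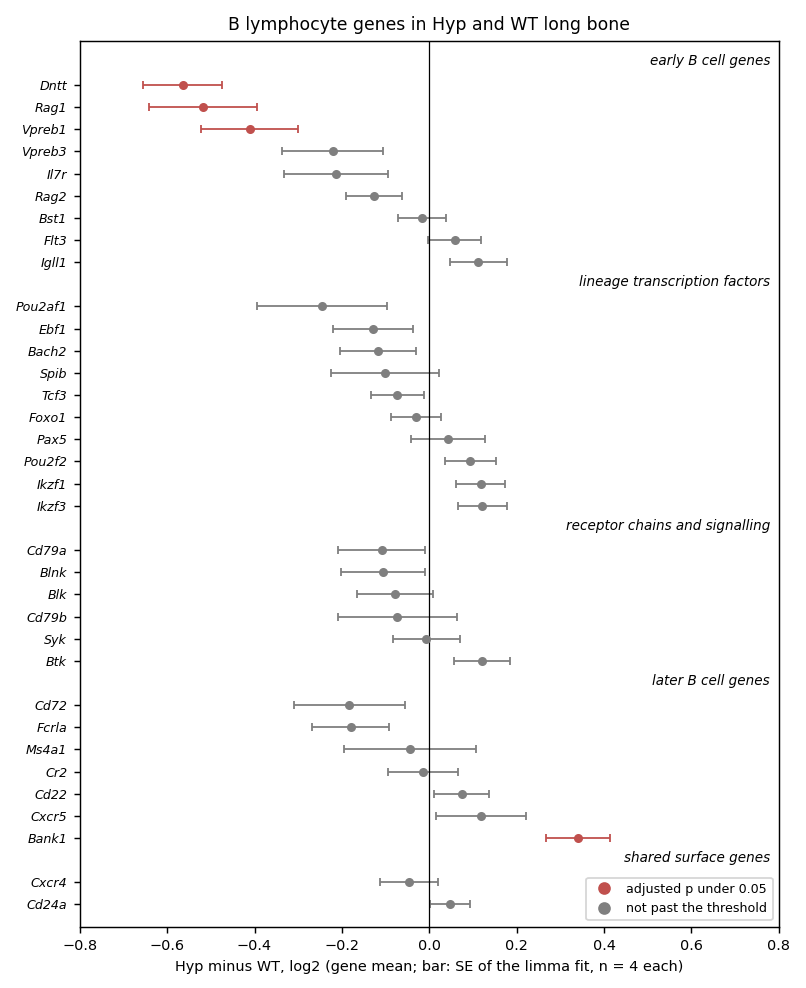
The 34 B lymphocyte genes measured, grouped by role (rows), with the difference Hyp minus WT on the log2 scale on the horizontal axis. Points are gene means, bars are the SE of the limma fit (n = 4 arrays each), and red marks an adjusted p under 0.05. Dntt, Rag1 and Vpreb1 lie left of 0 and Bank1 right of it, while the 30 grey genes lie between -0.25 and 0.12.

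The start regions of the 4 genes that changed are shown with that of Igll1, the partner of Vpreb1, to give the letters that lie before each start site. Each sequence is read 5′ to 3′ on the gene's strand from 250 bases before to 50 after the annotated start, from RefSeq (GRCm38.p6), with matches to the searched motifs in capitals.
Dntt, chr19:41029025-41029324, plus strand: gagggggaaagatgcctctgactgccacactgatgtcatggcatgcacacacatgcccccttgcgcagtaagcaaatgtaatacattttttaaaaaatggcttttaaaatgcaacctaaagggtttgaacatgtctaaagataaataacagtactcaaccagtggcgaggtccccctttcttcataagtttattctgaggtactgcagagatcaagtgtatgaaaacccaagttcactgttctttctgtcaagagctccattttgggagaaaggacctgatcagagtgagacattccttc
Rag1, chr2:101649483-101649782, minus strand: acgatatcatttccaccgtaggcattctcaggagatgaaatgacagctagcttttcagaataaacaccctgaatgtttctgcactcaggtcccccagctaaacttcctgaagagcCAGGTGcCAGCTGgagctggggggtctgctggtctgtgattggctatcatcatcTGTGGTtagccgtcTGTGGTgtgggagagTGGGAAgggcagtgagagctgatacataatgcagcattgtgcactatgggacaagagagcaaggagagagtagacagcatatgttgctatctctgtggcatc
Vpreb1, chr16:16869206-16869505, minus strand: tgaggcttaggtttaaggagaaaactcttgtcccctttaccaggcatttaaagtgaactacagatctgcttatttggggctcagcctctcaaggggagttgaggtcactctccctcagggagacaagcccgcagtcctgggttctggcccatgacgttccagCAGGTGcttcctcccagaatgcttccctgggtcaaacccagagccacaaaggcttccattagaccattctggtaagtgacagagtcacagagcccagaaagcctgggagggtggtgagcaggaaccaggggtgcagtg
Igll1, chr16:16863936-16864235, minus strand: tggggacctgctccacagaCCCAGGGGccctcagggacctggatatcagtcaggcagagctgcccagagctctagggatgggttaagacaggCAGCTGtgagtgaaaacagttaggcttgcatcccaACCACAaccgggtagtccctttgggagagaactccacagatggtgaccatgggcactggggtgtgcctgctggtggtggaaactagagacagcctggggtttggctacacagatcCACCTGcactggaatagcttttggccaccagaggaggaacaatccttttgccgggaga
Bank1, chr3:136326017-136326316, minus strand: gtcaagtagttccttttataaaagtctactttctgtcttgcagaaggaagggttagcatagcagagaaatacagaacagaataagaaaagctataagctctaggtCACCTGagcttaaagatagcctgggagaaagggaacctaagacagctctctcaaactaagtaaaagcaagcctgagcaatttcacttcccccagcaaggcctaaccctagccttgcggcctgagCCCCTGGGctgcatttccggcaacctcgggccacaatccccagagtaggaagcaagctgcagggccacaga
The motifs were searched on both strands: CCCNNGGG for EBF factors, the E-boxes CAGCTG and CAGGTG for E proteins such as Tcf3, TGGGAA for Ikaros factors, ATTTGCAT (the octamer) for Pou2f2 and its relatives, TGTTTAC for FOXO factors and TGTGGT for RUNX factors. CAGCTG reads the same on both strands, and a match in capitals that differs from these letters is a match on the opposite strand. No motif matched in the Dntt window. The Rag1 window held CAGGTG at 135 and CAGCTG at 128 bases before the start, 2 RUNX matches and 1 Ikaros match. The Vpreb1 window held 1 CAGGTG, and the Igll1 window held 1 EBF match, 1 RUNX match and 1 of each E-box. The Bank1 window held 1 EBF match and 1 CAGGTG. Promoter windows were matched for 28 of the 35 members, 31 windows in all, and this set includes Cd38, which has no expression value here. CAGGTG was in 35.5% of them (20.2% of all 32851 windows), the EBF motif in 19.4% (13.7%), CAGCTG in 9.68% (16.3%), the Ikaros motif in 19.4% (25.6%), the octamer in 6.45% (1.74%), the RUNX motif in 19.4% (16.8%) and the FOXO motif in 0 of 31 (3.65%). These matches describe letters only, and a window without a match tells nothing about the factor.

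Of the recombination genes, Dntt and Rag1 fell and Rag2 did not pass. Dntt, the terminal transferase that adds nucleotides where gene segments are joined, read -0.40, -0.20, -0.65 and -0.22 in Hyp replicates 1 to 4 and 0.26, 0.17, 0.21 and 0.15 in WT replicates 1 to 4. All Hyp arrays lay below all WT arrays, Hyp replicate 3 was the lowest, and the WT arrays lay close together. Dntt averaged -0.37 ± 0.21 in Hyp and 0.20 ± 0.05 in WT (SD, n = 4 each), a fall of 0.56 ± 0.09 (SE; limma adjusted p = 0.00253), or 67.6% of the WT level. Its 3 probe sets all had Hyp arrays below WT arrays, with differences of -0.67, -0.71 and -0.31 (limma adjusted p over all probe sets = 0.000678, 0.00642 and 0.122). The smallest of these came from a probe set with the suffix _x_at, which marks some probes that can also match other transcripts.

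Rag1, the subunit of the recombinase that binds and cuts the signal sequences, read -0.55, -0.08, -0.62 and -0.09 in the Hyp arrays and 0.33, 0.18, 0.14 and 0.08 in the WT arrays. The genotypes did not overlap, but the Hyp arrays fell into a low pair, replicates 1 and 3, and a pair just under 0, replicates 2 and 4. Rag1 fell by 0.52 ± 0.12 (SE; limma adjusted p = 0.0208), with means of -0.33 ± 0.29 in Hyp and 0.18 ± 0.11 in WT (SD, n = 4 each). Without Hyp replicate 1, Hyp replicate 3 or WT replicate 1 its limma adjusted p was 0.0587, 0.0503 or 0.0678. Rag2, the cofactor that Rag1 needs for cutting and whose gene lies beside it, read -0.18, -0.03, -0.18 and 0.06 in Hyp and 0.08, 0.03, -0.03 and 0.09 in WT. Its arrays overlapped, and its difference of -0.13 ± 0.06 (SE; limma adjusted p = 0.239) did not pass.

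Of the genes of the surrogate light chain, Vpreb1 fell and Igll1 did not pass on its gene mean, nor did the related Vpreb3. Vpreb1, the variable-like part of the chain, read -0.31, -0.14, -0.62 and -0.04 in Hyp and 0.27, 0.15, 0.04 and 0.08 in WT. The genotypes did not overlap, though Hyp replicate 4 and WT replicate 3 lay close to each other. Vpreb1 fell by 0.41 ± 0.11 (SE; limma adjusted p = 0.0352), with means of -0.28 ± 0.25 in Hyp and 0.13 ± 0.10 in WT (SD, n = 4 each). Its call was lost without Hyp replicate 1 or WT replicate 1, 2 or 4 (limma adjusted p = 0.0822, 0.107, 0.0711 and 0.0652), and on probe sets its adjusted p was 0.0602. A further probe set that Vpreb1 shares with its near-identical copy Vpreb2, and that the choice of members left out, lay at -0.50 ± 0.13 (SE; limma adjusted p = 0.0414), again without overlap. The signals of the 2 genes cannot be told apart there.

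Vpreb3, a related protein of the pre-B cell secretory pathway, read -0.06, 0.10, -0.43 and -0.06 in Hyp and 0.28, 0.20, -0.11 and 0.06 in WT. The arrays overlapped, and its difference of -0.22 ± 0.12 (SE; limma adjusted p = 0.246) did not pass. Igll1 (lambda 5), the constant-like partner of Vpreb1, had a gene mean 0.11 ± 0.06 higher in Hyp (SE; limma adjusted p = 0.299), but its 2 probe sets lay on opposite sides of 0. The probe set with the plain suffix _at read 0.20, 0.44, 0.49 and -0.04 in Hyp and -0.26, 0.04, -0.23 and -0.35 in WT, a difference of 0.47 ± 0.12 (SE; limma adjusted p over all probe sets = 0.0492), and Hyp replicate 4 lay below WT replicate 2. The probe set with the suffix _x_at read -0.18, -0.15, -0.48 and 0.11 in Hyp and 0.14, 0.15, -0.07 and 0.07 in WT, a difference of -0.25 ± 0.11 (SE; limma adjusted p = 0.232). Hyp replicate 3 was the highest Hyp array in the one probe set and the lowest in the other. The direction of Igll1 thus cannot be read from the gene mean, and with its plain _at probe set alone Igll1 passed on the gene level too (limma adjusted p = 0.0311 without probe sets with a shared-probe suffix).

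**Figure D2:**
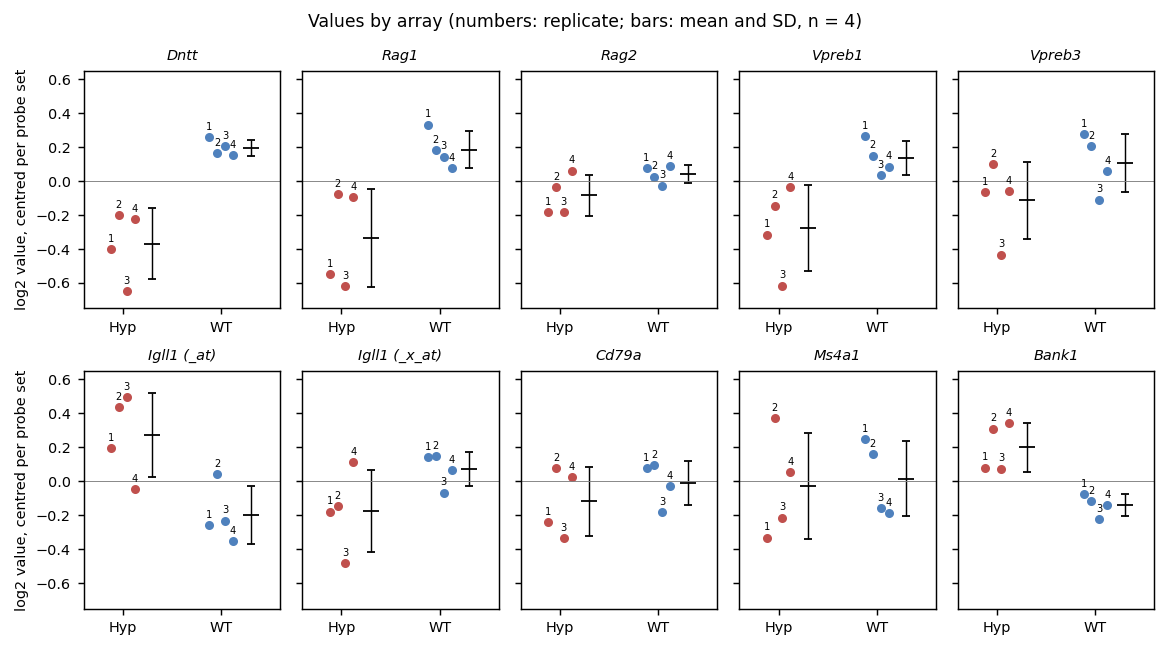
Centred log2 value (vertical axis) of 9 early and later B cell genes, with both probe sets of Igll1, in the 4 Hyp arrays (red, left) and the 4 WT arrays (blue, right). Small digits give the replicate, and black bars the mean and SD (n = 4). Dntt, Rag1 and Vpreb1 have every Hyp array below every WT array and Bank1 the reverse, while the Igll1 probe sets lie in opposite directions at 0.47 and -0.25.

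The other early genes did not pass. Il7r, the receptor chain for interleukin 7, read -0.16, 0.21, -0.42 and -0.13 in Hyp and 0.28, 0.07, 0.07 and -0.07 in WT, with a difference of -0.21 ± 0.12 (SE; limma adjusted p = 0.279). Its arrays overlapped, with Hyp replicate 2 above 3 of the 4 WT arrays. Flt3, the receptor tyrosine kinase of multipotent and lymphoid progenitors, lay at 0.06 ± 0.06, and Bst1 (CD157), an ectoenzyme of stromal cells and B cell precursors, at -0.02 ± 0.06. Of the 9 early genes, a list chosen with earlier results known, 3 fell and none rose. Of all genes 6.32% were lower and 6.54% higher. In the early list 7 differences were negative, with a median of -0.21.

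The transcription factors of the lineage showed no call in either direction. Their 10 differences ranged from -0.25 to 0.12 with a median of -0.05, and the lowest limma adjusted p among them was 0.195. Ebf1, which commits progenitors to the B lineage, lay at -0.13 ± 0.09 (SE; limma adjusted p = 0.402), with 2 of its 5 probe sets at -0.30 and -0.22 and the others between -0.14 and 0.04. Pax5, which holds that commitment, lay at 0.04 ± 0.08 (limma adjusted p = 0.789), and Tcf3, the E protein that acts before both, at -0.07 ± 0.06 (limma adjusted p = 0.477). Foxo1, an activator of the Rag genes, lay at -0.03 ± 0.06.

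Ikzf1 (Ikaros), a zinc finger factor of all lymphoid cells, read 0.09, 0.01, -0.02 and 0.08 in Hyp and -0.04, -0.03, -0.20 and -0.03 in WT. The genotypes did not overlap, by a narrow margin between Hyp replicate 3 and WT replicates 2 and 4, and the difference of 0.12 ± 0.06 (SE; limma adjusted p = 0.208) did not pass. It came from 1 probe set at 0.21 (limma adjusted p = 0.0602), with the other at 0.02. Its relative Ikzf3 (Aiolos) lay at 0.12 ± 0.06 (limma adjusted p = 0.195). Pou2af1, a coactivator of octamer factors, had the most negative difference of the group at -0.25 ± 0.15 (limma adjusted p = 0.323), with Hyp arrays spread between -0.54 and 0.28, and its partner Pou2f2 lay at 0.09 ± 0.06. Bach2, a repressor that keeps B cells from becoming plasma cells, and Spib, an Ets factor, lay at -0.12 ± 0.09 and -0.10 ± 0.12.

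The signal-carrying parts of the B cell receptor did not pass either. Cd79a, the alpha chain that both the pre-B cell receptor and the mature receptor need, read -0.24, 0.08, -0.33 and 0.03 in Hyp and 0.08, 0.10, -0.18 and -0.03 in WT. The genotypes overlapped and the difference was -0.11 ± 0.10 (SE; limma adjusted p = 0.526). Cd79b, its partner chain, lay at -0.07 ± 0.14. The kinases Syk, Btk and Blk lay at -0.01 ± 0.08, 0.12 ± 0.06 and -0.08 ± 0.09, and Blnk, the adaptor that links Syk to Btk, at -0.11 ± 0.10. The lowest limma adjusted p of these 6 genes was 0.253, for Btk. The value of Syk is a mean over 4 probe sets in opposite directions, at 0.15, 0.04, -0.04 and -0.18, so its direction cannot be read.

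Among 7 genes of later B cells, 1 rose and none fell, beside 6.54% of all genes higher and 6.32% lower. The median difference of the 7 genes was -0.01. Bank1, a scaffold protein of B cell receptor signalling, read 0.08, 0.31, 0.07 and 0.34 in Hyp and -0.07, -0.12, -0.22 and -0.14 in WT. All Hyp arrays lay above all WT arrays, with replicates 2 and 4 the highest. Bank1 averaged 0.20 ± 0.14 in Hyp and -0.14 ± 0.06 in WT (SD, n = 4 each), a rise of 0.34 ± 0.07 (SE; limma adjusted p = 0.0121) measured by 1 probe set. Ms4a1, which encodes CD20, read -0.33, 0.37, -0.21 and 0.06 in Hyp and 0.25, 0.16, -0.16 and -0.19 in WT. Its arrays spread widely within both genotypes, and its difference was -0.04 ± 0.15 (limma adjusted p = 0.882). Cd22, an inhibitory receptor that binds sialic acid, lay at 0.07 ± 0.06, Cr2, the complement receptor CD21, at -0.01 ± 0.08, and Cxcr5, the chemokine receptor that guides B cells into follicles, at 0.12 ± 0.10. Cd72, an inhibitory coreceptor, and Fcrla, an intracellular Fc receptor-like protein, lay at -0.18 ± 0.13 and -0.18 ± 0.09. Without both Hyp replicate 2 and WT replicate 3, Cd72 and Fcrla passed at -0.36 and -0.30 (limma adjusted p = 0.0412 and 0.0292), as did Bach2 at -0.22 (0.0468), and Bank1 at 0.28 did not (0.0576). In Cd72, Fcrla and Bach2 these were the highest Hyp and the lowest WT array, so leaving them out lowers the difference by construction. Of the genes shared with other cell types, Cd24a, a surface glycoprotein of immature B cells and many other cells, lay at 0.05 ± 0.05, a mean over probe sets in opposite directions at 0.13, -0.15 and 0.16, so its direction cannot be read. The groups did not overlap at the last of these (limma adjusted p = 0.116). Cxcr4, the receptor that holds precursors in the marrow, lay at -0.05 ± 0.07.

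**Figure D3:**
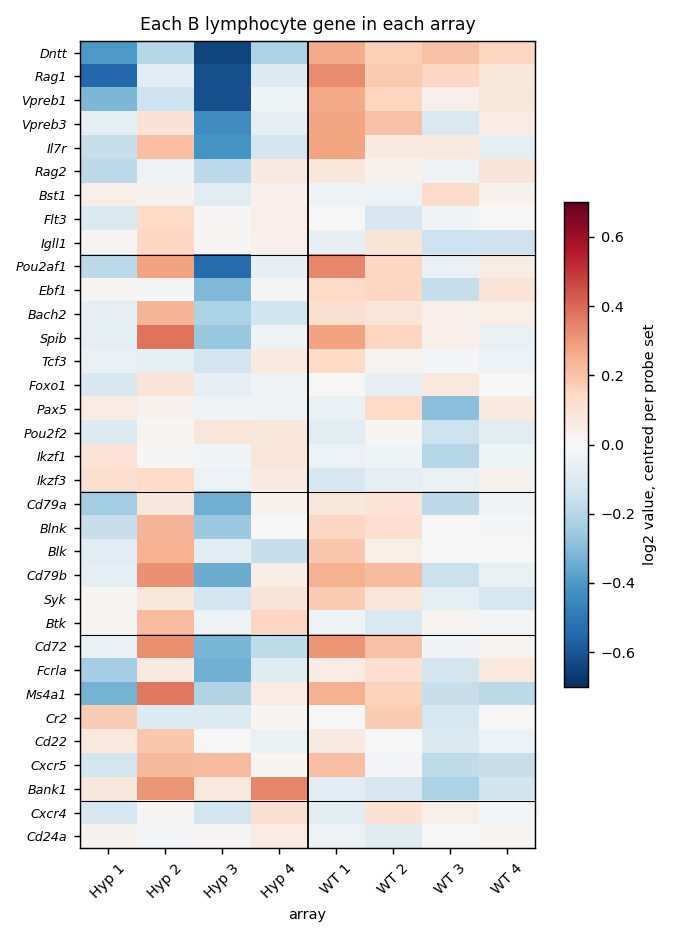
Centred log2 value of each of the 34 genes (rows, grouped by role) in each array (columns, Hyp left of the line and WT right of it), from blue (-0.7) to red (0.7). Hyp replicate 3 is the lowest Hyp array in 24 genes and Hyp replicate 2 the highest in 21, while in the 2 shared surface genes at the bottom Hyp replicate 4 is the highest.

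The arrays of 1 genotype differed along most of the members at once. Hyp replicate 3 was the lowest of the Hyp arrays in 24 of 34 members (70.6%, against 25.4% of all genes), and Hyp replicate 2 the highest in 21 (61.8%, against 26.9%). WT replicate 1 was the highest of the WT arrays in 18 members (52.9%, against 19.1% of all genes) and WT replicate 3 the lowest in 19 (55.9%, against 31.8%). The mean over all 34 members was -0.09, 0.11, -0.19 and 0.00 in the Hyp arrays and 0.11, 0.07, -0.05 and -0.01 in the WT arrays. These means overlapped between the genotypes.

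Early and later genes were then set apart within each array. The mean of the 9 early genes was -0.19, 0.02, -0.33 and -0.04 in Hyp and 0.16, 0.08, 0.03 and 0.03 in WT, so that every Hyp array lay below every WT array, with Hyp replicate 2 close to WT replicates 3 and 4. The mean of the 7 later genes was -0.06, 0.20, -0.10 and 0.02 in Hyp and 0.12, 0.08, -0.13 and -0.06 in WT, and overlapped. Early minus later, which takes out only what moves both lists equally in an array, was -0.13, -0.18, -0.24 and -0.06 in Hyp and 0.04, 0.01, 0.16 and 0.09 in WT. It was negative in all 4 Hyp arrays and positive in all 4 WT arrays, with means of -0.15 ± 0.08 in Hyp and 0.08 ± 0.07 in WT (SD, n = 4 each) and a difference of -0.23. Because the genes were chosen with earlier results of these data known, these list means are a description with no test. When Dntt, Rag1 and Vpreb1 were taken out, the remaining 6 early genes minus the later ones read -0.02, -0.10, -0.09 and -0.02 in Hyp and -0.03, -0.04, 0.12 and 0.06 in WT. The genotypes then overlapped and differed by -0.08. Taking out the genes that fell narrows the gap by construction, and Bank1, which rose, was still among the later genes. The value thus shows only what the other 6 genes read against that list. On their own these 6 genes differed by -0.07. Against the 6 receptor and signalling genes, the mean of all 9 early genes differed by -0.17 and did not overlap. That value again holds Dntt, Rag1 and Vpreb1, and it was not taken without them. On their own the receptor and signalling genes differed by -0.04.

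**Figure D4:**
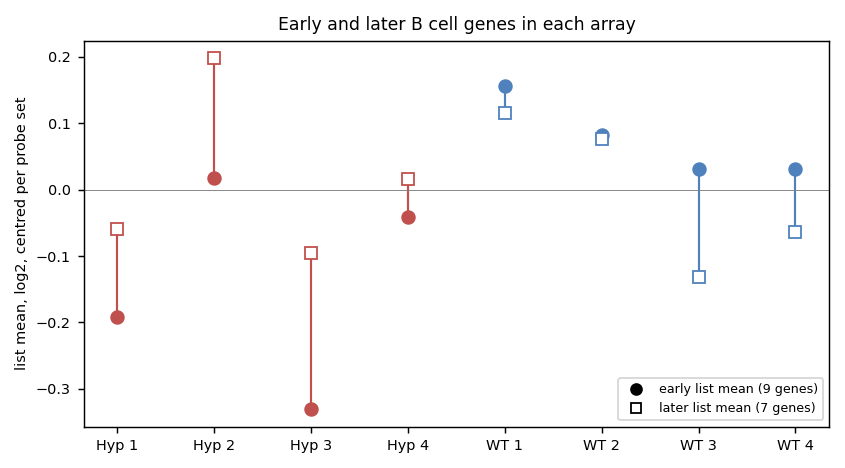
Mean centred log2 value of the 9 early genes (filled circles) and the 7 later genes (open squares) in each Hyp array (red) and each WT array (blue). The early mean lies below the later one in all 4 Hyp arrays and above it in all 4 WT arrays, by 0.01 only in WT replicate 2.

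Within an array, pairs of members were also compared directly. For 8 pairs chosen with their values known, the difference between the 2 members was tested by exact permutation of the arrays (two-sided; 0.029 is the lowest p that 4 against 4 arrays allow) and adjusted over the 8 pairs. Since the pairs were chosen in this way, the p-values describe the arrays and are no independent evidence. Rag1 minus Rag2 was 0.39 lower in Hyp and did not overlap (exact p = 0.029, adjusted p = 0.0381). Each of these genes was read by 1 probe set, with an SD in Hyp of 0.29 for Rag1 and 0.12 for Rag2. Whether the probe sets respond equally was not tested. Vpreb1 minus Igll1 differed by -0.52 on gene means (exact p = 0.029, adjusted p = 0.0381), whereas Vpreb1 minus Vpreb3 differed by -0.19 and overlapped (exact p = 0.0857 before and after adjustment). Between the 2 Igll1 probe sets, _x_at minus _at differed by -0.72 with overlap (exact p = 0.0571, adjusted p = 0.0653). Relative to Cd79a, Dntt, Rag1 and Vpreb1 lay at -0.46, -0.41 and -0.30 and Bank1 at 0.45, each without overlap (exact p = 0.029, adjusted p = 0.0381). Dntt minus Cd79a read -0.16, -0.28, -0.31 and -0.25 in Hyp and 0.18, 0.07, 0.39 and 0.18 in WT. The SD of this pair was 0.07 in Hyp and 0.13 in WT, and that of Dntt alone 0.21 in Hyp and 0.05 in WT.

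Further genes of the pathway were read from lists that were likewise made with earlier results known. Beside the counts in these and the following lists, 6.32% of all genes were lower in Hyp and 6.54% higher. Of 17 measured early genes outside the members, 2 fell and none rose, with a median of -0.06. Satb1, a chromatin organiser of lymphoid progenitors, fell by 0.39 ± 0.05 (SE; limma adjusted p = 0.0011), with 3 of its 5 probe sets between -0.74 and -0.62 and the others at 0.10 and 0.04, and Id3, an inhibitor of E proteins, fell by 0.31 ± 0.07 (limma adjusted p = 0.0136). Both genes also act in T cells. None of 9 measured genes of recombination and end joining passed (median -0.02). Lig4, the ligase that closes the joints, was nearest at -0.45 ± 0.14 (limma adjusted p = 0.058), with overlap.

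Of 24 measured later genes outside the members, 5 rose and 1 fell, with a median of 0.06. The leading 4 were genes of antigen presentation by MHC class II, H2-Eb1 at 0.70 ± 0.12 (SE), Cd74 at 0.68 ± 0.10, H2-Aa at 0.65 ± 0.10 and H2-Ab1 at 0.58 ± 0.11 (limma adjusted p from 0.00162 to 0.00525), which macrophages and dendritic cells use as well. Named after their values were seen, S1pr1, a receptor for exit from tissues, rose by 0.27 ± 0.08 (limma adjusted p = 0.0464), and H2-Ob, a subunit of a class II accessory molecule of B cells, fell by 0.38 ± 0.09 (limma adjusted p = 0.0251), with overlap. Of 4 measured immunoglobulin genes, the joining chain included, Igha, a heavy chain constant region, rose by 0.41 ± 0.06 (limma adjusted p = 0.0022), with 2 of its probe sets at 0.69 and 0.52 and the third at 0.01. Ighm, the heavy chain of the first receptor, lay at -0.02 ± 0.06 (limma adjusted p = 0.894), a mean over 11 probe sets between -0.20 and 0.16. Of 9 plasma cell and secretory genes 2 fell, Xbp1 by 0.34 ± 0.06 and Fkbp11 by 0.35 ± 0.05 (limma adjusted p = 0.00391 and 0.00117), and the fall of Fkbp11 came from 1 of its 3 probe sets. Both are also used by other secretory cells. Of 14 genes downstream of the receptor, Ptpn6, an inhibitory phosphatase, rose by 0.23 ± 0.07 and Vav2, an exchange factor, fell by 0.27 ± 0.06 (limma adjusted p = 0.0404 and 0.0133).

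Of 15 measured genes for signals of the marrow niche and their mediators, 6 rose and none fell, with 13 positive and 2 negative differences and a median of 0.16. Kitl (stem cell factor), which supports progenitors, read 0.26, 0.09, 0.34 and 0.42 in Hyp and -0.25, -0.19, -0.35 and -0.13 in WT, a rise of 0.50 ± 0.08 (SE; limma adjusted p = 0.0019). Cxcl12, the chemokine ligand of Cxcr4, read 0.09, 0.10, 0.17 and 0.23 in Hyp and -0.18, -0.08, -0.26 and -0.13 in WT, a rise of 0.31 ± 0.06 (limma adjusted p = 0.00534). Neither overlapped. The kinase gene Jak3 and the feedback inhibitor Cish rose by 0.27 ± 0.05 and 0.34 ± 0.07 (limma adjusted p = 0.00507 and 0.00834). Il7 itself lay at 0.16 ± 0.07 (limma adjusted p = 0.169) with overlap, and Flt3l was not analysed here.

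Markers of other cell types moved between the same arrays, and their part in the results above was not tested. Of 16 measured monocyte and macrophage genes 13 rose, with a list mean between 0.16 and 0.38 in Hyp and between -0.34 and -0.25 in WT. Of 8 erythroid genes 6 rose, with a list mean between 0.06 and 0.19 in Hyp and between -0.32 and -0.16 in WT, and of 11 cell division genes 5 rose. T cells also use Rag1 and Dntt while they develop, and of 17 T and NK cell genes 3 rose (Cd4 at 0.26, Icos at 0.25 and Gzmb at 0.32) and none fell. Their list mean lay between 0.03 and 0.10 in Hyp and between -0.08 and 0.00 in WT. Of 13 genes of dendritic cells, plasmacytoid ones included, 2 rose and 1 fell (median 0.02), of 13 neutrophil genes 1 rose (median 0.09), and of 10 stem and progenitor genes 3 rose (median 0.11). Of 9 osteoblast and osteocyte genes 6 fell and 1 rose, with a list mean between -0.33 and -0.14 in Hyp and between 0.17 and 0.36 in WT. None of 14 skeletal muscle genes passed (median -0.48). Since the values are centred, none of these lists shows which marker was absent.

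**Figure D5:**
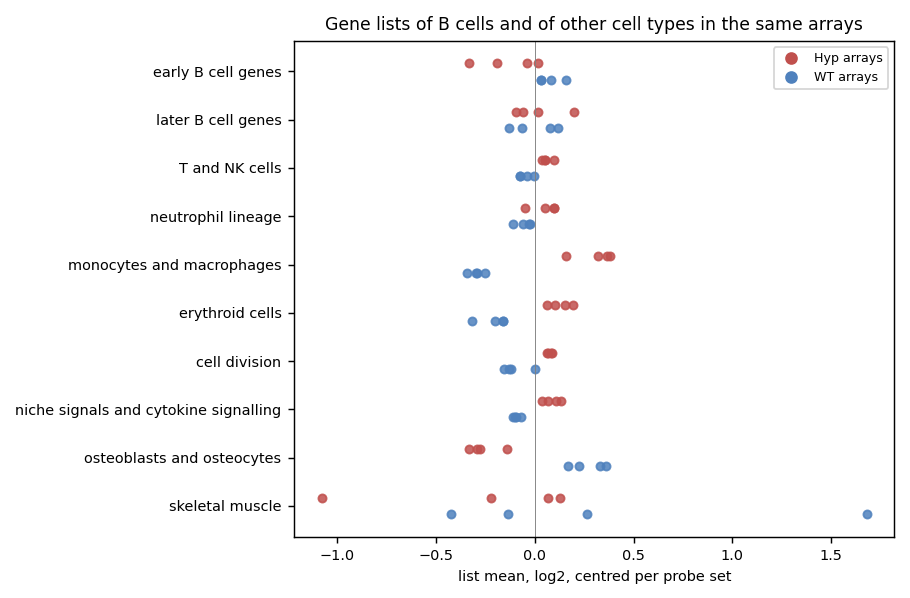
List mean of centred log2 values (horizontal axis) for the early and later B cell genes and for lists of other cell types and signals (rows), with 1 point for each Hyp array (red, upper) and each WT array (blue, lower). The early B cell genes lie further left in Hyp than in WT arrays, but Hyp replicate 2 at 0.02 is close to WT replicate 4 at 0.03. Osteoblast genes in Hyp lie left of 0 at -0.33 to -0.14, and monocyte and macrophage genes right at 0.16 to 0.38.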

How the data were processed

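RNA of 4 Hyp and 4 WT extracts, each from 2 bone samples, was measured on 8 arrays. The deposited log2 values, 1 per probe set and array, were made by the authors with RMA, per the submitters' processing notes. The log base is not stated in the labels and was taken as 2: single probe sets spanned up to 8.92 units, more than the 4.8 that a 16-bit scanner covers in log10. The median of every probe set was 0 within 5e-07, a centring no label records. Of 45101 probe sets, 64 controls were left out. The platform annotation gave 1 symbol to 34945, several to 932 and none to 9160, and 34741 of the first were matched to RefSeq names (GRCm38.p6). Values of probe sets with 1 symbol were averaged per gene. The genotypes were compared with limma 3.58.1 in R 4.3.3 (lmFit and eBayes, no covariate, two-sided), once over 18193 genes and once over 45037 probe sets, with Benjamini-Hochberg adjustment and a threshold of 0.05. The fit was tested on simulated data. Median SEs were 0.0651 per gene and 0.0811 per probe set, and the number of arrays limits the precision.

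The members and gene lists were chosen with earlier results of these data known. Array values are given for members past the threshold or without overlap between genotypes, and for others chosen after their values were seen. From each further list, at most 4 genes past the threshold with the smallest p were named, beside Il7, Cxcl12 and Kitl. Other genes are said to be named after their values were seen, or were nearest to the threshold (Lig4). Ighm was named outside these rules. Alternatives tried were leaving out each array, a block for the replicate number, leaving out Hyp replicate 2 together with WT replicate 3, quantile or median normalization, other probe set choices, array weights, a robust prior, a filter on SD and other thresholds. Filters on level could not be run on centred values.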

Additional observations from a re-analysis of the deposited data

Results flagged for a closer look

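In groups of 4 arrays, 8 of 158 groups checked for single arrays held 1 far from the other 3, where chance gives about 1 in 20. Among the B lymphocyte genes, Hyp replicate 3 was low for Bst1, at -0.073 beside 0.03 to 0.04 in the other Hyp arrays. It was also low for Ebf1, at -0.31 beside -0.01 to 0.02. WT replicate 3 was low for Ebf1 too, at -0.17 beside 0.09 to 0.14 in the other WT arrays, and low for Ikzf1, at -0.20 beside -0.04 to -0.03. In the further lists, Igha was lowest in Hyp replicate 4, at 0.11 beside 0.26 to 0.28 in the other Hyp arrays. Mcm2 was highest in Hyp replicate 4, at 0.15 beside 0.06. Mki67 was highest in WT replicate 3, at -0.015 beside -0.31 to -0.28 in the other WT arrays. Cd34 was lowest in WT replicate 1, at -0.26 beside -0.10 to -0.08.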

How the results depend on the processing

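Dntt passed under every alternative run, at the stricter threshold too. With 1 array left out, the members that fell numbered between 1 and 4, beside 4.42% to 6.34% of all genes lower. Only Dntt was left without Hyp replicate 1 or WT replicate 1, and Bach2 joined at -0.21 (limma adjusted p = 0.0439) without Hyp replicate 2. Bank1 remained the 1 higher member in each of these. Without both Hyp replicate 2 and WT replicate 3, 6 fell and 0 rose, beside 5.2% lower and 6.02% higher of all genes. This omission lowers the difference of many members by construction. Igll1 joined Bank1, which made 2 higher members, when the most variable probe set stood for each gene (0.47, limma adjusted p = 0.0396; 5.21% of all genes higher) and, again 2, when those with a shared-probe suffix were left out (0.47, limma adjusted p = 0.0311; 5.5% of all genes higher). At an adjusted p under 0.01, 1 was lower and 0 higher, beside 3.4% and 2.24% of all genes. Fkbp11 no longer fell without shared-probe suffixes, at 0.039 (limma adjusted p = 0.782). Cd24a lay at -0.15 by its most variable probe set. Same-numbered arrays of the genotypes were not paired by the labels, and their deviations correlated at -0.01, 0.06, 0.18 and 0.08. With the replicate number as a block, 3 members fell and 1 rose, beside 5.84% and 5.58% of all genes, with Dntt at -0.56 (limma adjusted p = 0.00722). Early minus later genes differed by -0.27 to -0.19 over 14 alternatives. All 14 kept Dntt, Rag1, Vpreb1 and Bank1. The replicate block and the subtraction of array medians could not change this value. The pairs were also run under the alternatives, all but the pair of Igll1 probe sets. Of their 91 alternative values, 63 came from leaving out arrays. That cannot reverse a pair without overlap, and subtracting array medians cannot change a pair. None of the values reversed a pair whose exact permutation p was under 0.05, which was thus largely fixed in advance. For Vpreb1 minus Vpreb3, whose exact p was above that, the direction was not checked. The number of arrays and the unknown signal over background limit these results: a member near background would show small differences that could not be told from no change.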
